A study of Rattus norvegicus with 16 samples.

Results

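The 200 features described here are the rows of a rat bone expression table that stood highest in cortical bone relative to bone with marrow. They were chosen by 1 number per row, the mean log2 level of the 8 arrays of bone with marrow minus that of the 8 arrays of cortical bone, over both diets. The 200 rows with the most negative difference were taken of 31099, or 0.643% of the table. The question was how excess vitamin A moved these rows within each tissue, array by array.

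Cortical bone is the dense shell of a long bone. Most of its cells are osteocytes, which are former osteoblasts enclosed in mineral, with osteoblasts and osteoclasts on its surfaces and vessels in its canals. Marrow fills the shaft with blood-forming cells. Vitamin A acts through retinoic acid, which binds nuclear receptors that switch genes on or off. An excess is known to thin long bones in rodents.

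All animals were male Sprague-Dawley rats aged 8 weeks, fed for 8 days, with 12 rats per diet in cages of 3. Controls received pellets with 12 IU of vitamin A per g. Treated rats received the same diet with 1700 IU per g, added as retinyl palmitate and retinyl acetate. RNA came from the shaft of the humerus, without its ends, growth plates and periosteum. Either the marrow was kept, which is called bone with marrow here, or cut pieces were shaken in cold buffer to wash it out, which leaves cortical bone. The design text takes bone with marrow to stand mainly for marrow cells. The 4 combinations of preparation and diet had 4 arrays each, with a sample code of its own, and whether 2 arrays came from 1 animal is not stated.

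The values are log2 levels after RMA, which corrects background, makes the distributions of the arrays alike and combines the probes of a feature into 1 value. Array medians lay between 5.988 and 6.031. The identifiers printed beside the rows did not belong to them. Row number followed how strongly a row separated the diets in bone with marrow (Spearman correlation with the absolute moderated t -0.999), and 9609 pairs of rows listed under 1 symbol had a median correlation of 0.012 over the arrays. Rows are therefore named by number, counted from the top of the table, with no gene, sequence or marker check, and a low row number itself reflects a large effect in bone with marrow. Of the members, 112 stood in the first 1000 rows. For 2 arrays, control 1 of each tissue, the tissue field of the labels contradicts the title. They were grouped by title, and results are also given without them.

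The rule itself set how far the members differed between the tissues, so these values are a description. Row 53 had the most negative difference, -1.83, followed by row 22067 at -1.81 and row 20029 at -1.80. The last members inside the limit were rows 74 and 6475 and the first outside were rows 693 and 2006. All of these 4 stood at -1.34 when rounded, so the limit marks no break. Row 53 read 9.68 to 10.06 in the 4 control arrays of cortical bone and 7.08 to 7.68 in those of bone with marrow. Row 22067 had control means of 6.87 ± 0.45 (SD, n = 4) in cortical bone and 5.12 ± 0.23 in bone with marrow. In row 20029 the control arrays of cortical bone were far apart, at 8.09, 6.67, 7.77 and 5.81, while those of bone with marrow lay between 4.42 and 4.98. In 158 members (79%) all 8 arrays of cortical bone lay above all 8 of bone with marrow, where 5.73% of all rows did so. The rule makes that share high by construction.

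Most members lay in the upper part of the arrays' range. Their median stood at percentile 88.3 of all rows in control cortical bone and at 66.4 in control bone with marrow. Group means ran from 5.39 to 13.18 in control cortical bone, and from 3.68 to 11.40 in control bone with marrow. Row 28795 alone stood below the 10th percentile of the values in control bone with marrow, at 3.68.

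Under excess vitamin A most members stood higher in bone with marrow and went both ways in cortical bone. In bone with marrow the median of the 200 rows was 7.75, 6.74, 7.04 and 6.80 in control arrays 1 to 4, and 7.85, 7.85, 7.59 and 7.92 in the vitamin A arrays. Array 1 of the controls lay among the vitamin A arrays and the other 3 lay below all of them. In cortical bone the medians were 8.94, 8.58, 9.05 and 8.91 in controls and 8.90, 8.85, 9.21 and 8.88 under vitamin A. Here the groups overlapped, with array 2 lowest among the controls and array 3 highest under vitamin A. Averaged over arrays, the member median was 7.08 ± 0.46 (SD, n = 4) in control and 7.80 ± 0.14 in treated bone with marrow, and 8.87 ± 0.20 and 8.96 ± 0.17 in cortical bone. In bulk RNA, more cells of a type and more RNA per cell cannot be told apart.

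**Figure D1:**
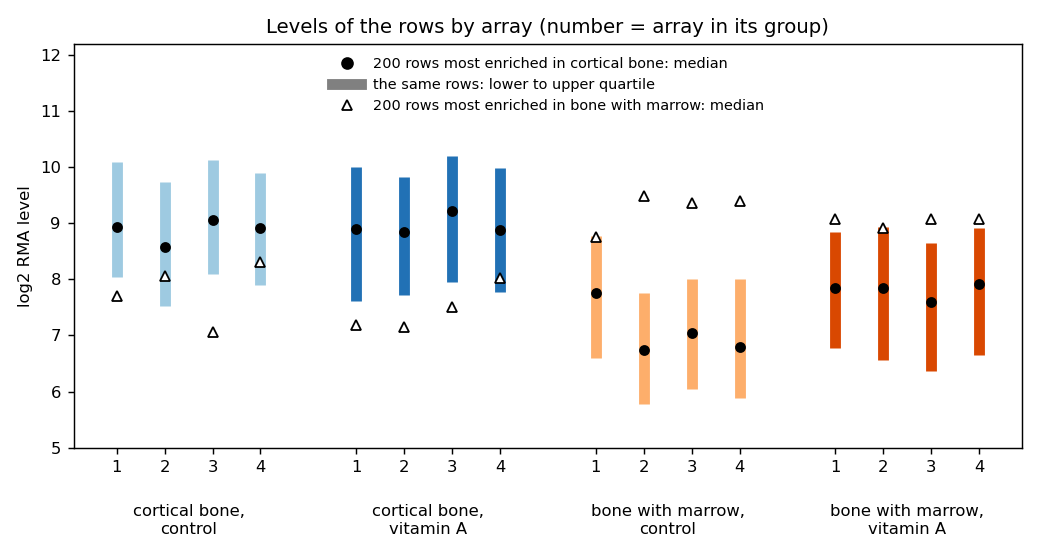
Log2 RMA level by array, for the 4 arrays of each of the 4 groups. Black points give the median and bars the quartiles of the 200 rows most enriched in cortical bone, and triangles give the median of the 200 rows most enriched in bone with marrow. Control array 1 of bone with marrow (7.75) lies beside the vitamin A arrays (7.59 to 7.92), above the other controls (6.74 to 7.04).

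The rows at the opposite end of the same ranking, the 200 most enriched in bone with marrow, were also read by array. The same arrays chose both lists, so their readings are not independent. Under vitamin A these marrow rows had a median log2 change of -0.29 in bone with marrow and -0.37 in cortical bone. Over all rows it was -0.03 and 0.02. The array medians of the marrow rows in bone with marrow were 8.75, 9.48, 9.36 and 9.40 in controls. Under vitamin A they were 9.08, 8.91, 9.07 and 9.07. Control array 2 had the lowest level of cortical rows and the highest level of marrow rows. Each array was also placed between the tissues by a position, computed from all rows outside both lists (0 for the cortical bone mean, 1 for bone with marrow). It was 0.690 in control array 1 of bone with marrow and 1.152 to 1.320 in the other controls. Under vitamin A it was 0.796 to 0.975.

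In bone with marrow, 46 of the 200 members (23%) changed at an adjusted p under 0.05, by limma with Benjamini-Hochberg adjustment over all rows. All 46 rose. The background was 0.389% of all rows called (121 rows), or 0.383% rising, and the members made up 38% of the called rows. Whatever the p, the vitamin A mean was higher in 190 members (95%), where 42.3% of all rows were higher. The median change was 0.70 log2 units (quartiles 0.43 and 0.91, range -0.58 to 1.88) against -0.03 over all rows. Among the 46, the median change was 1.02 with a median SE of 0.17, and 24 rose by at least 2-fold (0.125% of all rows). The diet contrast was not part of the rule. The 2 are independent only if both diets vary alike, and the median SD of a member in bone with marrow was 0.45 in controls and 0.22 under vitamin A (0.14 in both over all rows). The selection can therefore have favoured rows that happened to be low in the controls, by an amount that was not tested.

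Array 1 of the controls stood apart in these rows. It was above every other control in 179 members, by a median of 0.81 log2 units over their mean, and differed from the vitamin A mean by a median of -0.06. Without it the members' median change was 0.91, 195 had a higher mean, and 119 were called, against 2.23% of all rows. Without control arrays 2, 3 or 4 the count of members was 8, 12 and 11, against 0.0547%, 0.0933% and 0.0933% of all rows. Without vitamin A arrays 1, 2, 3 or 4 it was 19, 9, 25 and 12, against 0.148%, 0.0707%, 0.177% and 0.0804%. Calls over the whole table thus moved in the same direction as those of the members. The median change stayed between 0.58 and 0.91 over the 8 arrays of bone with marrow left out in turn. Leaving out an array of cortical bone cannot change it. With only the 8 arrays of bone with marrow in the fit, 12 members were called (0.135% of all rows). Once this position entered the fit as a covariate, 19 were called (0.138% of all rows) and the median change was 0.45, with 178 members above 0. With both contradictory arrays left out the count was 118, against 2.04% of all rows. Grouping them by the tissue field instead gave 0 called members, 0 called rows in the table and a median of 0.40. The position of the contradictory array titled cortical bone was -0.046.

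The vitamin A arrays were alike in direction. Of the 200 members, 193, 189, 160 and 194 stood above the mean of the 4 controls in vitamin A arrays 1 to 4, where 43.1%, 48.9%, 45.6% and 42.9% of all rows did. Above every control stood 134, 120, 85 and 134 members, against 17%, 21.8%, 21% and 17.7% of all rows. In 64 members (32%) all 4 vitamin A arrays lay above all 4 controls, where 2.97% of all rows did so. Without control array 1 this held for 149 members and for 7.88% of all rows. In 1 member, row 5313, all vitamin A arrays lay below all controls (3.1% of all rows). Its mean went from 6.84 to 6.26 (limma adjusted p = 0.65), and it was singled out after its values were seen.

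**Figure D2:**
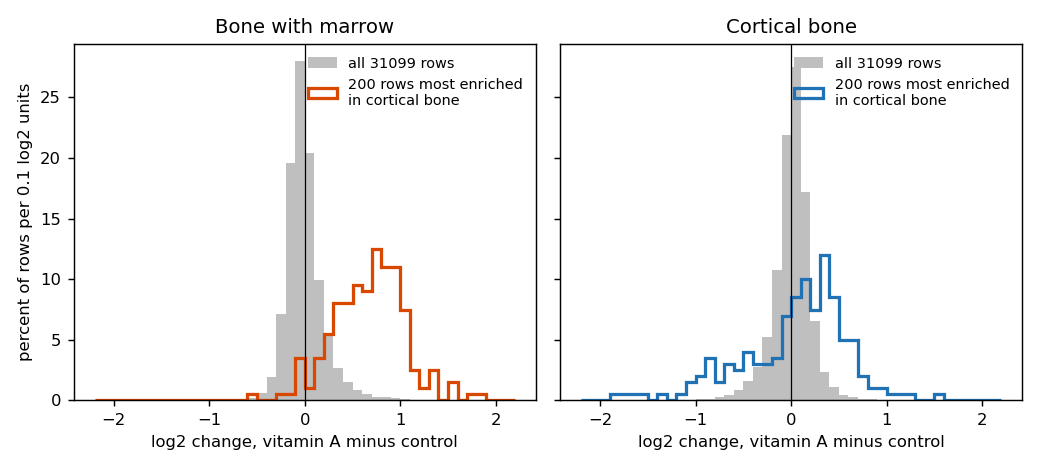
Distribution of the log2 change, vitamin A minus control, in bone with marrow and in cortical bone, as percent of rows per 0.1 log2 units. The 200 rows most enriched in cortical bone (line) centre on 0.70 in bone with marrow and spread from -1.84 to 1.58 around 0.14 in cortical bone, while all 31099 rows (grey) centre on -0.03 and 0.02.

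Row 1 had the strongest test in bone with marrow. It read 7.88, 7.30, 7.44 and 7.27 in controls and 8.74, 8.78, 8.89 and 8.76 under vitamin A. The groups were apart by more than the range of either, and the rise was 1.32 ± 0.13 (SE, limma adjusted p = 0.00058). In cortical bone it stood at 9.16 ± 0.21 (SD, n = 4) and 9.82 ± 0.13 (limma adjusted p = 0.0582).

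Row 30 had the largest change of the list. Control arrays 1 to 3 read 6.98 to 7.02 and control array 4 read 7.51, and the vitamin A arrays 9.53, 9.12, 8.64 and 8.72. Control array 4 stood above the other controls but below every treated array, and the rise was 1.88 ± 0.30 (SE, limma adjusted p = 0.0113). The call was lost without control array 2 or 3 or vitamin A array 2 (limma adjusted p = 0.0515 to 0.0626). Its vitamin A mean in bone with marrow exceeded the control mean of cortical bone, 8.86, which happened in 1 other member, row 3.

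Row 5 went from 9.40, 8.42, 8.76 and 8.36 to 9.90, 10.08, 10.13 and 10.08, a rise of 1.31 ± 0.17 (SE, limma adjusted p = 0.00338). Row 35 went from 7.38, 5.62, 5.93 and 6.04 to 7.74, 7.86, 7.89 and 7.74, by 1.56 ± 0.26 (limma adjusted p = 0.0165). In both rows control array 1 was the highest control and the treated arrays were close together. Row 75 was more scattered. It read 5.85, 5.15, 6.23 and 5.41 in controls and 7.49, 7.03, 6.53 and 6.96 under vitamin A (rise 1.35 ± 0.26, limma adjusted p = 0.0299). Row 35 lost its call without control array 2, 3 or 4 or vitamin A array 2 or 4 (limma adjusted p = 0.0559 to 0.0846). Row 75 lost it without control array 2 or 4 or vitamin A array 1, 2 or 4 (0.0942 to 0.15) and with the position covariate (0.112). With only the 8 arrays of bone with marrow in the fit, rows 35 and 75 were not called (limma adjusted p = 0.0886 and 0.0683).

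Rows 19 and 41 followed each other closely. Over the 16 arrays they differed by a median of 0.07 and at most 0.27 log2 units, and whether they report 1 gene cannot be read from this table. They were not alone, since 134 pairs of members lay within 0.5 log2 units on every array, of 19900 pairs. Such pairs held 95 members. Row 19 rose from 7.09 ± 0.53 (SD, n = 4) to 8.41 ± 0.31 (limma adjusted p = 0.00965). For row 41 the means went from 7.14 ± 0.55 to 8.46 ± 0.32 (limma adjusted p = 0.0169). In both, vitamin A array 1 was the lowest treated array, at 7.98 and 8.04. Control array 1 read 7.85 and 7.94, just below it. Row 19 lost its call without control array 2 or vitamin A array 2 (limma adjusted p = 0.0522 and 0.0509). Row 41 lost it without control array 2, 3 or 4 or vitamin A array 2 or 4 (0.07 to 0.0919) and with the covariate (0.07). Neither was called with only the 8 arrays of bone with marrow in the fit (limma adjusted p = 0.0757 for row 19 and 0.0791 for row 41).

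Among members that missed the threshold, row 348 had the largest change. It read 4.87, 5.01, 5.43 and 5.01 in controls and 7.76, 6.79, 6.22 and 6.36 under vitamin A. The groups did not overlap, but the treated arrays were far apart (log2 change 1.70 ± 0.45 SE, limma adjusted p = 0.15). In cortical bone the same row ranged from 6.91 to 8.38 in controls and from 6.10 to 8.59 under vitamin A. Rows 30013 and 30470 moved least, each with a change of -0.01. Row 30013 read 4.49 to 4.95 in controls and 4.44 to 5.07 under vitamin A. Row 110 was the only called member whose diet groups overlapped, at means of 7.25 and 8.27.

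Changes of the same sign continued beyond the limit of 200 rows. Over ranks 1 to 50, 51 to 100, 101 to 150 and 151 to 200 of the tissue difference, the median change was 0.74, 0.64, 0.66 and 0.75, with 10, 11, 13 and 12 rows called. Over ranks 201 to 400 it was 0.57, over ranks 401 to 1000 it was 0.41, and over ranks 1001 to 3000 it was 0.20. These wider ranges held 23, 20 and 23 called rows, so the share called fell steeply beyond the limit. Of all rows, 0.389% were called in bone with marrow. In 4 sets of 50 members, from the lowest to the highest mean level, the median change was 0.56, 0.63, 0.83 and 0.76, with 7, 12, 16 and 11 rows called.

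In cortical bone, 7 of the 200 members (3.5%) changed in the same limma fit, 2 rising and 5 falling, where 0.212% of all rows were called (0.132% rising and 0.0804% falling). The 5 were 20% of the 25 rows of the table that fell. The group mean was higher under vitamin A in 125 members (62.5%, against 55.7% of all rows) and lower in 75. The median change was 0.14 (0.02 over all rows), but the members spread from -1.84 to 1.58 with quartiles of -0.28 and 0.40. Their SD over rows was 0.56, against 0.21 over the table. At an unadjusted p under 0.05 there were 44 members higher (4.72% of all rows) and 35 lower (3.46%). In 36 members (18%) all treated arrays lay above all controls, and in 12 (6%) below, where 2.31% and 1.05% of all rows did so.

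The small median shift in cortical bone varied with the arrays included. It was 0.09, with 115 members higher, once vitamin A array 3 was left out, and 0.20 once control array 3 was. Control array 2 stood below every other control in 143 of the 200 members. Without it the median change was 0.04, with 105 members higher and 95 lower, and 10 were called, 1 rising and 9 falling (0.19% of all rows). The count of called members was 4 without control array 1 (0.119% of all rows), 4 without control array 3 (0.161%) and 13 without control array 1 of bone with marrow (0.273%), which shares the estimate of spread. Without control array 2, the number of members with all treated arrays above all controls was again 36, against 3.8% of all rows. With the position in the fit of cortical bone, the median change was 0.01 and 14 members were called, 3 rising and 11 falling (0.309% of all rows). Positions in cortical bone ran from -0.200 to 0.360 in controls and from -0.092 to 0.189 under vitamin A. A fit of only the 8 cortical arrays called 2 members, rows 3 and 28795 (0.0193% of all rows). Grouping the contradictory arrays by the tissue field, no member was called (0.0418% of all rows) and the median was 0.43.

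Row 3 was the only member called in both tissues (0.0418% of all rows). In cortical bone it read 5.72, 4.81, 5.58 and 5.63 in controls and 7.10, 6.80, 7.06 and 7.09 under vitamin A. In bone with marrow it read 4.49, 3.94, 3.99 and 3.68, then 5.77, 5.24, 5.87 and 5.57. The groups were clearly apart in each tissue, with rises of 1.58 ± 0.20 (SE, limma adjusted p = 0.00198) and 1.59 ± 0.20 (limma adjusted p = 0.00338).

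Row 589 was the other member that rose in cortical bone. Its controls were within 0.04 of each other, at 6.45, 6.47, 6.47 and 6.43, and the treated arrays read 7.11, 7.37, 7.89 and 7.22. The rise was 0.94 ± 0.17 (SE, limma adjusted p = 0.0206). The call was lost without any 1 of the 4 controls (limma adjusted p = 0.051 to 0.0733), without vitamin A array 2 or 3 (0.0589 and 0.0605) and without both contradictory arrays (0.08). In bone with marrow it went from 5.31 ± 0.32 (SD, n = 4) to 5.84 ± 0.13, which missed the threshold (limma adjusted p = 0.243).

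Row 28795 fell the most. Cortical bone read 6.21, 5.75, 6.54 and 6.21 in controls and 4.10, 3.90, 4.45 and 4.88 under vitamin A. The fall was by 1.84 ± 0.19 (SE, limma adjusted p = 0.000439), to a treated mean of 4.33 that was still above the 3.65 ± 0.23 (SD, n = 4) of treated bone with marrow. In bone with marrow the controls read 3.58, 3.83, 3.53 and 3.76, and the row did not pass the test (limma adjusted p = 0.984).

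Row 15506 had controls of 8.83, 7.37, 8.49 and 7.83 and treated arrays of 6.13, 6.59, 6.37 and 6.31. The scattered controls all lay above the tight treated group (log2 change -1.78 ± 0.32 SE, limma adjusted p = 0.0235). Row 6666 went from 7.27, 7.02, 7.48 and 7.58 to 5.20, 5.46, 6.14 and 6.19 (log2 change -1.59 ± 0.29, limma adjusted p = 0.0278). Here the treated arrays fell into a lower and a higher pair, all below the controls. Without both contradictory arrays neither row was called (limma adjusted p = 0.0977 and 0.0876). Row 15506 also lost its call without control array 1 or 3 or vitamin A array 1 or 3 (0.0744 to 0.0973). Row 6666 lost it without control array 1, 3 or 4 or vitamin A array 1 or 2 (0.0784 to 0.096).

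Row 25514 went from 8.07, 7.52, 7.62 and 7.94 to 6.47, 6.06, 6.78 and 6.55 (log2 change -1.32 ± 0.18 SE, limma adjusted p = 0.00269). Row 30470 went from 8.94, 8.08, 8.48 and 8.89 to 7.50, 7.45, 7.63 and 7.54 (log2 change -1.07 ± 0.17, limma adjusted p = 0.00789). These 5 falling rows stood at 3.65 to 6.71 in treated bone with marrow, lower than in treated cortical bone in each row. Their changes in bone with marrow ran from -0.05 to 0.44, and none passed the test (limma adjusted p from 0.702 to 0.995). Of these 5 rows, 4 were among the 50 members of lowest mean level.

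**Figure D3:**
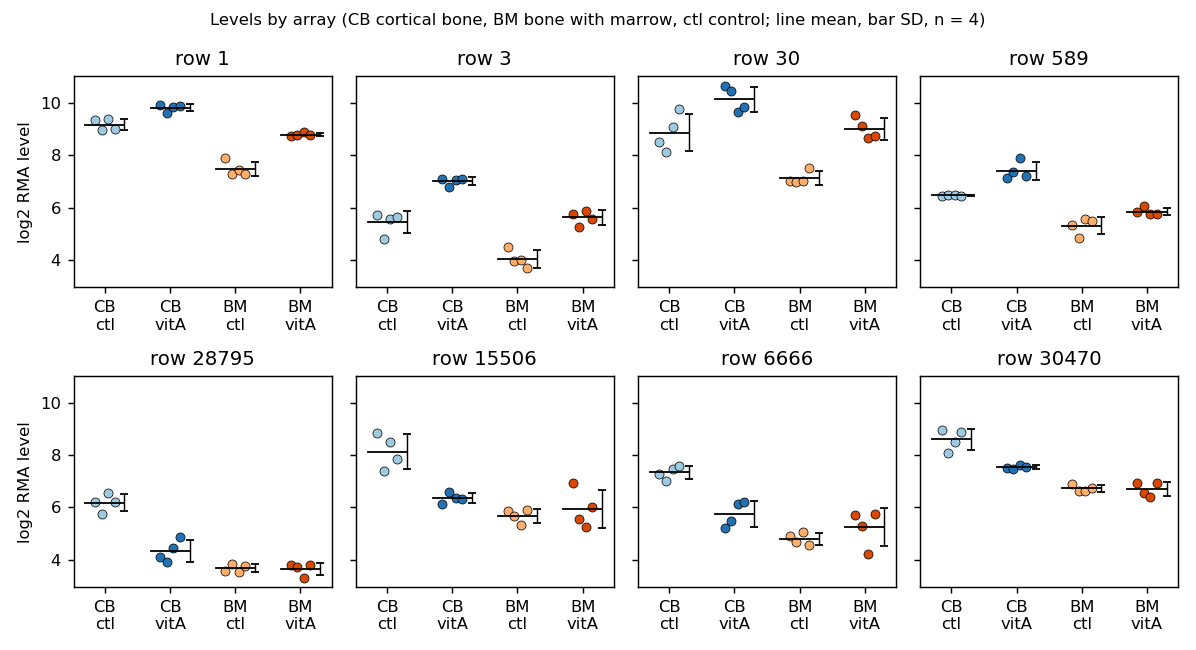
Log2 RMA level of 8 members in each array, with the group mean (line) and SD (bar, n = 4). Rows 1, 3, 30 and 589 (top) rose under vitamin A in at least 1 tissue, and rows 28795, 15506, 6666 and 30470 (bottom) fell in cortical bone, from group means of 6.18 to 8.60 in controls to 4.33 to 7.53.

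The largest change that missed the threshold in cortical bone was in row 4981. It read 10.05, 10.72, 11.32 and 8.68 in controls and 6.51, 9.24, 9.62 and 8.70 under vitamin A (log2 change -1.68 ± 0.72 SE, limma adjusted p = 0.546). Its arrays were also far apart in bone with marrow, from 6.34 to 8.69 and from 7.57 to 10.17. Such scatter was more common among the members than in the table. In control cortical bone, 23 members had an SD over 0.5, and in control bone with marrow 77, where 2.64% and 1.84% of all rows did. Rows 781 and 6234 had a change of 0.00 to 2 decimals. Row 781 read 12.02 ± 0.18 (SD, n = 4) in control and 12.02 ± 0.41 in treated cortical bone, and row 6234 read 8.11 ± 0.62 and 8.11 ± 0.16.

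Changes in the 2 tissues, which share no array, went together over the members. In 125 members (62.5%) the mean was higher under vitamin A in both tissues, in 65 it was higher in bone with marrow and lower in cortical bone, and in 10 it was lower in both. No member was lower in bone with marrow and higher in cortical bone. Over all rows these 4 patterns held 27.7%, 14.6%, 29.7% and 28% of the table. Across the 200 members Pearson's r between the changes was 0.68 and Spearman's rho 0.67, and across all rows 0.41 and 0.31. These are descriptions, since rows are not independent and each tissue's rows share 8 arrays.

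The 125 members with a higher mean in cortical bone had a median change of 0.82 in bone with marrow (quartiles 0.66 and 0.97), and 41 of them were called there. The 75 with a lower mean in cortical bone had a median of 0.39 in bone with marrow (quartiles 0.24 and 0.59), and 5 were called. These were rows 53, 60, 72, 83 and 85, with changes in bone with marrow of 0.94, 0.69, 0.90, 1.19 and 1.08 and in cortical bone of -0.39, -0.15, -0.07, -0.18 and -0.12. The 125 and the 75 had median levels of 8.24 and 8.08 and median tissue differences of -1.42 and -1.48. Of all rows, 0.389% were called in bone with marrow. Over all rows the changes in the tissues also went together (Pearson's r 0.41), and all rows were not split in this way. Whether the contrast is particular to the members was therefore not tested.

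Among the 4 treated arrays of bone with marrow, array 3 differed most between these subsets. It was the lowest of the 4 treated arrays in 62 of the 75 members that were lower in cortical bone and in 64 of the 125. The subset medians in treated arrays 1 to 4 of bone with marrow were 7.83, 7.62, 7.15 and 7.54 for the 75, and 7.92, 7.96, 7.89 and 7.95 for the 125. This array also had the highest position between the tissues in its group, 0.975 against 0.796 to 0.820. The difference between the subsets was not tested, because they were formed from the measured changes.

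**Figure D4:**
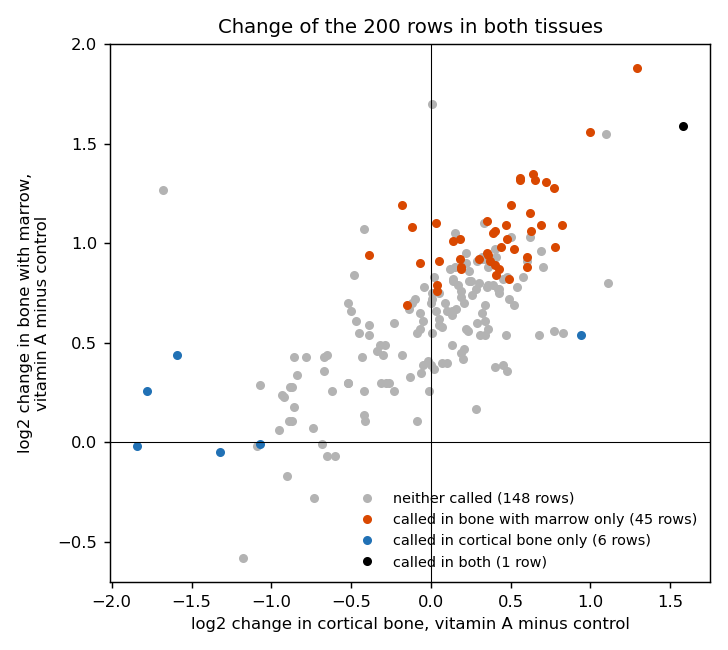
Log2 change of each of the 200 rows under vitamin A in cortical bone (horizontal) and in bone with marrow (vertical), coloured by which test the row passed at an adjusted p under 0.05. Row 3 is called in both, 45 rows in bone with marrow alone and 6 in cortical bone alone, and no row lies at the lower right.

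**Figure D5:**
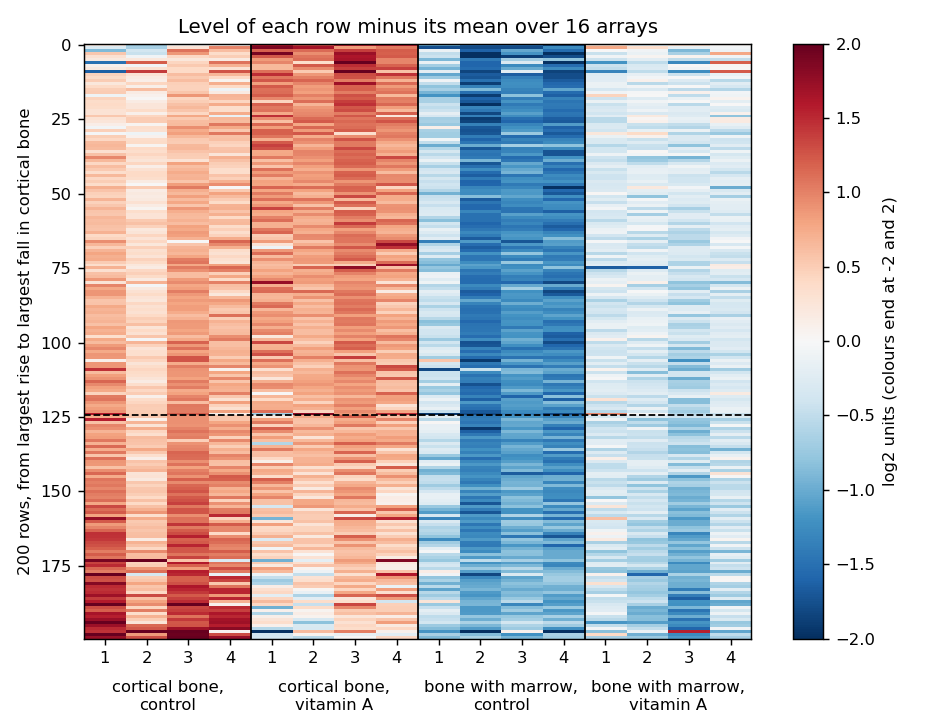
Level of each of the 200 rows minus its mean over the 16 arrays, in log2 units, with arrays in columns and rows ordered from the largest rise to the largest fall in cortical bone. The dashed line parts the 125 rows higher under vitamin A in cortical bone from the 75 lower ones. Control array 1 of bone with marrow is paler than the other 3 controls, and treated array 3 of bone with marrow is darker than its group below the dashed line.

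The members deviated from their group means together. The mean correlation between the deviations of 2 members over the 16 arrays was 0.484, against 0.012 over all pairs of rows. Among the 200 rows most enriched in bone with marrow it was 0.625. Within the 8 arrays of bone with marrow it was 0.581 for the members and 0.524 for those rows, and within the 8 of cortical bone 0.347 and 0.679. The 200 members therefore do not give 200 separate readings of an array.

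The distance between the tissues was smaller under vitamin A in 191 members (95.5%). Their change was the more positive in bone with marrow, as in 43.4% of all rows. Over the 200 members, bone with marrow minus cortical bone had a median of -1.76 in controls and -1.16 under vitamin A. The members at least 2-fold lower in bone with marrow numbered 200 in controls and 162 under vitamin A. Treated cortical bone stayed above treated bone with marrow in the mean of every member. As a test of single rows, the contrast of the diet effect in 1 tissue with that in the other called 0 of the 200 members in limma at an adjusted p under 0.05 (0.00322% of all rows, 1 row). At an unadjusted p under 0.05, 88 members (44%) had the more positive change in bone with marrow and 0 in cortical bone, against 1.51% and 2.48% of all rows. The rule ranked rows by the mean of the distances under the 2 diets, so large distances are given by construction. The members' median SD in bone with marrow was 0.45 in controls and 0.22 under vitamin A. The selection can therefore have favoured rows with a larger distance in controls, by an amount that was not tested.

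Row 28795 came closest, whose changes in the 2 tissues were 1.82 ± 0.27 apart (SE, limma adjusted p = 0.0558). Its control mean in bone with marrow lay below the 10th percentile of that group's values. Whether a lower limit of the arrays affects the size of this difference was not tested. Row 53, the first of the ranking, was next. It rose in bone with marrow from 7.68, 7.08, 7.58 and 7.29 to 8.49, 8.59, 7.95 and 8.36 (limma adjusted p = 0.0234). In cortical bone it read 10.02, 9.68, 10.06 and 9.84, then 9.42, 9.33, 9.96 and 9.34, where 3 of 4 treated arrays lay below every control (limma adjusted p = 0.561). Its change in bone with marrow exceeded that in cortical bone by 1.33 ± 0.24 (SE, limma adjusted p = 0.201). In the other direction rows 589 and 465 had differences of -0.41 ± 0.23 and -0.14 ± 0.22 (limma adjusted p = 0.983 for each). Row 465 went from 9.87 ± 0.32 (SD, n = 4) to 10.55 ± 0.13 in cortical bone and from 8.52 ± 0.28 to 9.06 ± 0.14 in bone with marrow, without passing the test in either.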

How the data were processed

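RNA from 16 samples was measured on Affymetrix rat arrays. The log2 levels were deposited by the authors after RMA, which the submitters' processing notes name. Which software and version ran it is not given in the sources. All 16 columns carried a sample's accession.

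Groups came from the titles. Tests used limma 3.58.1 (R 4.3.3) on the log2 values as deposited: a mean for each of 4 groups, 12 residual degrees of freedom, eBayes with trend, two-sided, adjusted by Benjamini-Hochberg over 31099 rows, called under 0.05. The test was checked on simulated data, with independent rows and the same SD in every group. The members differed in both respects, so that check does not extend to their calls. List medians are descriptions. Each p-value of the main fit sets a change against the spread between arrays within groups, estimated over the 4 groups together. The number of arrays limits the precision.

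The members, lists and tests were chosen with earlier results of these data known. Named rows are the called members with non-overlapping groups and the largest changes in each tissue (up to 8 and 6 per direction), the extremes and edge of the ranking, members called in both tissues, the members nearest to 0, the largest uncalled change, and the smallest p for the difference of effects. Other rows named were chosen after their values were seen. Marker lists were not used, since identifiers and values did not match.

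Alternatives covered the scaling (quantiles, medians), a filter on level (30th percentile), eBayes settings, array weights, thresholds, other lists, the 2 contradictory arrays, a covariate for tissue position, a block by replicate number, and single arrays removed. matplotlib 3.10.9 drew the figures.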

Additional observations from a re-analysis of the deposited data

Results flagged for a closer look

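Of 104 groups of 4 arrays looked at, 7 had 1 array far from the other 3, where chance flags about 1 in 20, or 5.2. Each is given with its gap to the nearest array as a share of the range. The member median of cortical bone under vitamin A was highest in array 3, at 9.21 against 8.85 to 8.90 (0.858). Row 3 was lowest in array 2 of both cortical groups, at 4.81 in controls (0.848) and 6.80 under vitamin A (0.860). Row 30 was highest in control array 4 of bone with marrow, at 7.51 (0.940). Row 41 was lowest in array 1 of treated cortical bone, at 9.19 (0.831). Row 53 was highest in array 3 of treated cortical bone, at 9.96 (0.860). Row 28795 was lowest in array 3 of treated bone with marrow, at 3.31 (0.835). Control array 1 of bone with marrow, at a member median of 7.75, did not pass this limit.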

How the results depend on the processing

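The direction of the median change in bone with marrow held under every alternative run, from 0.40 to 0.91, while the count of 46 called members did not. Beside the share of all rows called, it was 27 with quantile normalization (0.232%), 116 with array weights (2.74%), 12 with only the 8 arrays compared (0.135%), 0 with the contradictory arrays by tissue field (0%), 118 without both (2.04%), 19 with the position covariate (0.138%) and 9 at an adjusted p under 0.01 (0.0707%). Leaving out single arrays gave 8 to 119 (0.0547% to 2.23%), with medians of 0.58 to 0.91. In cortical bone the 7 called members became 12 with array weights (0.367%), 2 with only the 8 arrays compared (0.0193%), 0 by tissue field (0.0418%, with a median of 0.43), 14 with the covariate (0.309%), 4 at 0.01 (0.0965%) and 11 at 0.10 (0.338%). Single arrays left out gave 4 (0.119% and 0.161% of all rows) to 13 (0.273%), with medians of 0.04 to 0.20. For the difference of effects, 0 became 1 (row 28795) with array weights (0.00965% of all rows) and at 0.10 (0.00643%). Single arrays left out gave 0 (0% or 0.00322%) to 2 (0.00965%). The number of non-overlapping rising members in bone with marrow went from 64 to 149 without control array 1, chosen after seeing the data. The share of all rows, 2.97% with this array, also rose without it, as given above. Lists of 100 and 400 rows, a list chosen without the contradictory arrays (170 rows shared) and a list by moderated t (74 shared) gave medians of 0.69, 0.62, 0.71 and 0.49 in bone with marrow.

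With a replicate block the counts were 53 in bone with marrow (0.553%), 12 in cortical bone (0.331%) and 0 for the difference (0%). Replicate numbers are not stated to pair animals, and deviations of same-numbered arrays correlated by 0.008 to 0.377 in bone with marrow and 0.017 to 0.402 in cortical bone. Not every array matched its own number best. No named row reversed while called. Grouping by the tissue field, which exchanges control array 1 of the tissues, ended every named call. Of 29 alternatives, the call was lost in 10 for row 589, in 9 each for rows 41, 75 and 6666, in 8 each for rows 35 and 15506, in 5 for row 30, in 4 for row 19 and in 2 each for rows 25514 and 30470 in cortical bone. The 29 include the threshold of 0.10, at which no call can be lost. They also include arrays of the other tissue left out, which leaves the change itself as it was. The causes of the other changes were not tested.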
